A study of Mus musculus with 384 samples.

Results

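Levels of 8 genes for calcium-binding and calcium-sensor proteins were described in single neurons of the mouse midbrain labeled through the dopamine transporter. The genes were Calb1, Calb2, Pvalb, Ncald, Hpcal1, Hpca, Ncs1 and Vsnl1, taken by symbol, 8 of the 41267 rows of the count table that name a gene. Levels were read in the 209 of 384 cells that had at least 500000 counts. Calcium enters neurons during firing and is bound by proteins with EF-hand loops. Buffers such as calbindin (Calb1), calretinin (Calb2) and parvalbumin (Pvalb) take up free calcium. Neuronal calcium sensors (Ncald, Hpcal1, Hpca, Ncs1 and Vsnl1) change shape when they bind it and pass the signal to receptors, channels and enzymes. Calbindin is a classical histological marker of dopamine (DA) neurons in the ventral tegmental area and dorsal tier, and neurons of the ventral substantia nigra are known for having little of it.

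The cells came from 8 mice, 5 males and 3 females aged P24 to P36, on a C57BL6/J background. Every mouse was DAT-IRES-Cre;Ai9, in which Cre made under the dopamine transporter gene turns on tdTomato for good, so a labeled cell had expressed Cre at some time and need not be a DA neuron when it was collected. There was no unlabeled or untreated group, and the dissected tissue included the hypothalamus. Each mouse was 1 run on 1 of 2 Fluidigm C1 machines, named SMEAGOL (mice 1, 2, 4, 6 and 7) and FRODO (mice 3, 5 and 8), so mouse and C1 run cannot be told apart. Mice 1 to 3 were sequenced in lane 1, mice 5 to 8 in lane 2, and mouse 4 in both. Directions by mouse were read within each mouse, so a direction given for every mouse holds in both lanes. The main fits did not pair the classes by mouse, and a fit with mouse as a block was an alternative.

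The 209 cells held 500672 to 1544824 counts each (median 780484), with 12 to 45 cells and 8499846 to 32834551 summed counts per mouse. Reads carried no molecular identifiers. Exact intervals on a share of cells treat pooled cells as independent and leave out the spread between mice. For Calb1 that share ran from 44.4% in mouse 3 to 100% in mice 7 and 8. A cell was called Th-rich from 500 CPM (counts per 1000000 summed counts) of Th, the rate-limiting enzyme of dopamine synthesis, and 186 cells were Th-rich and 23 Th-poor. The cells nearest to that limit had 489 and 518.1 CPM. Th-rich cells with at least 10 counts of Aldh1a7, an aldehyde dehydrogenase gene, were called Aldh1a7+ (74 cells against 112), and those with at least 10 counts of Otx2, a homeobox transcription factor of ventral tegmental DA neurons, were called Otx2+ (47 against 139). Between 5 and 20 counts lay 27 Th-rich cells for Aldh1a7 and 16 for Otx2. The transporter gene Slc6a3 averaged 3250 CPM in Th-rich and 391 CPM in Th-poor cells of the 5 mice compared. The related enzyme Aldh1a1 averaged 6349 CPM in Aldh1a7+ and 1225 CPM in Aldh1a7- cells, higher in 7 of 7 mice. Its longest open reading frame is 92.0% identical to that of Aldh1a7 with 100 bases in a row in common between their transcripts, so the assignment of reads between this pair is uncertain.

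The 5 members with a RefSeq promoter entry (GRCm38.p6) were Ncs1, Hpca, Vsnl1, Hpcal1 and Pvalb. The 2 shown are those whose summed level differed most by Aldh1a7 status and by Otx2 status among the members with an entry. Each runs 5′ to 3′ from 250 bases before to 50 bases after the start site, with GGGCGG or its complement CCGCCC in capitals, the letters of the GC box bound by Sp1-type factors.
Hpcal1: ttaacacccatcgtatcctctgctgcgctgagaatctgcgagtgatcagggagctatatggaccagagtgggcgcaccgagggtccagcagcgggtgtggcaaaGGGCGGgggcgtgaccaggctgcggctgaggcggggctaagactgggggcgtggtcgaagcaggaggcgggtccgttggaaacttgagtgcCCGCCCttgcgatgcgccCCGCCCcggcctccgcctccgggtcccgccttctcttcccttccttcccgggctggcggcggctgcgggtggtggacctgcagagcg
Vsnl1: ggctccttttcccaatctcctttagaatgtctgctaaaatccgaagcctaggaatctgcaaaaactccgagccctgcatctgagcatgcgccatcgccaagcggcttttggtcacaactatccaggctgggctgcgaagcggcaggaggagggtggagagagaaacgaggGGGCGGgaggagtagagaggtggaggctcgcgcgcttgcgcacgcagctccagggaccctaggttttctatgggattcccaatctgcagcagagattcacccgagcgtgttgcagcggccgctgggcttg
RefSeq gives Vsnl1 2 start sites, and the one farther upstream is shown. The Hpcal1 stretch is chr12:17690559-17690858 on the plus strand, with 3 matches, 27 CpG and 68.3% G or C. The Vsnl1 stretch is chr12:11436529-11436828 on the minus strand, with 1 match, 18 CpG and 58.7% G or C. The other Vsnl1 stretch, chr12:11435602-11435901, holds 0 matches, 6 CpG and 44.3% G or C. GGGCGG, searched on both strands, was in 35.7% of the 32851 promoters of that length, and CCAAT, which the Vsnl1 stretch holds 2 times, was in 37.4%. TATAAA (13.6% of promoters) and TAATCC, the letters read by OTX-type homeodomains (7.06%), were in neither stretch.

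Both calbindin-type buffers and 4 of the 5 sensors were abundant, while Pvalb was not detected and Hpca was near the detection limit. Calb1 (chr4:15881264-15906709, plus strand) had 10 or more counts in 156 of 209 cells (74.6%, 95% Clopper-Pearson interval 68.2 to 80.4%). Its level per mouse was 298 CPM at the lowest, 732 at the median and 1088 at the highest (mean 712.5 ± 256 SD, n = 8 mice). Calb2 (chr8:110142526-110168212, minus strand) was detected in 160 cells (76.6%, 70.2 to 82.1%), with 360.4, 656 and 1003 CPM as the lowest, median and highest mouse. The levels of these buffers across mice overlapped widely. Pvalb (chr15:78191112-78206400, minus strand), the buffer of fast-spiking interneurons, had 0 reads in all 209 cells. The exact interval for 0 of 209 cells reaches 1.75%, which limits cells with reads and not cells with the gene below detection, and 3 counts over all cells would be 0.0179 CPM.

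Among the sensors, Vsnl1 (visinin-like 1, chr12:11325257-11436578, minus strand) was detected in the most cells, 204 of 209 (97.6%, 94.5 to 99.2%). Its level per mouse ran from 603 CPM through a median of 1102 to 1740.4 (mean 1201 ± 406 SD). Ncs1 (neuronal calcium sensor 1, which regulates D2 receptor desensitization, chr2:31245708-31295989, plus strand) was detected in 199 cells (95.2%, 91.4 to 97.7%), at 249, 1166 and 1618 CPM in the lowest, median and highest mouse. Both were present in almost every cell, and Ncs1 alone had a mouse far below the rest. Ncald (neurocalcin delta, chr15:37366175-37792519, minus strand) was detected in 190 cells (90.9%, 86.2 to 94.4%), at 154, 319 and 486 CPM. Hpcal1 (hippocalcin-like 1, chr12:17690750-17791944, plus strand) was detected in 162 cells (77.5%, 71.2 to 83.0%), at 103, 228 and 540 CPM. Hippocalcin itself, Hpca (chr4:129111570-129125919, minus strand), had only 454 counts in all cells together and 10 or more in 13 cells (6.22%, 3.35 to 10.4%), with 0.883, 2.88 and 4.15 CPM in the lowest, median and highest mouse. Reads of any number were present in 105 cells, so most Hpca values rested on a few reads.

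Per kilobase of exon, the order of mean levels over the 8 mice was Vsnl1 (614 ± 208 RPKM), Calb2 (379 ± 131), Ncs1 (240 ± 85.7), Hpcal1 (171 ± 88.2), Calb1 (169 ± 60.6), Ncald (80.1 ± 27.1), Hpca (0.941 ± 0.398) and Pvalb (0). Neighbors in this order overlapped across mice down to Ncald. Vsnl1 was above Calb2 in 6 of 8 mice, Hpcal1 was above Calb1 in only 3 of 8, and Calb1 was above Ncald in 8 of 8. Ncald and Hpca, and Hpca and Pvalb, had ranges apart. Single cells usually carried a set of these genes. In 108 of 209 cells (51.7%) 6 of the 8 were detected, in 44 cells 5, in 27 cells 4 and in 20 cells 3, while 6 cells had 7.

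**Figure D1:**
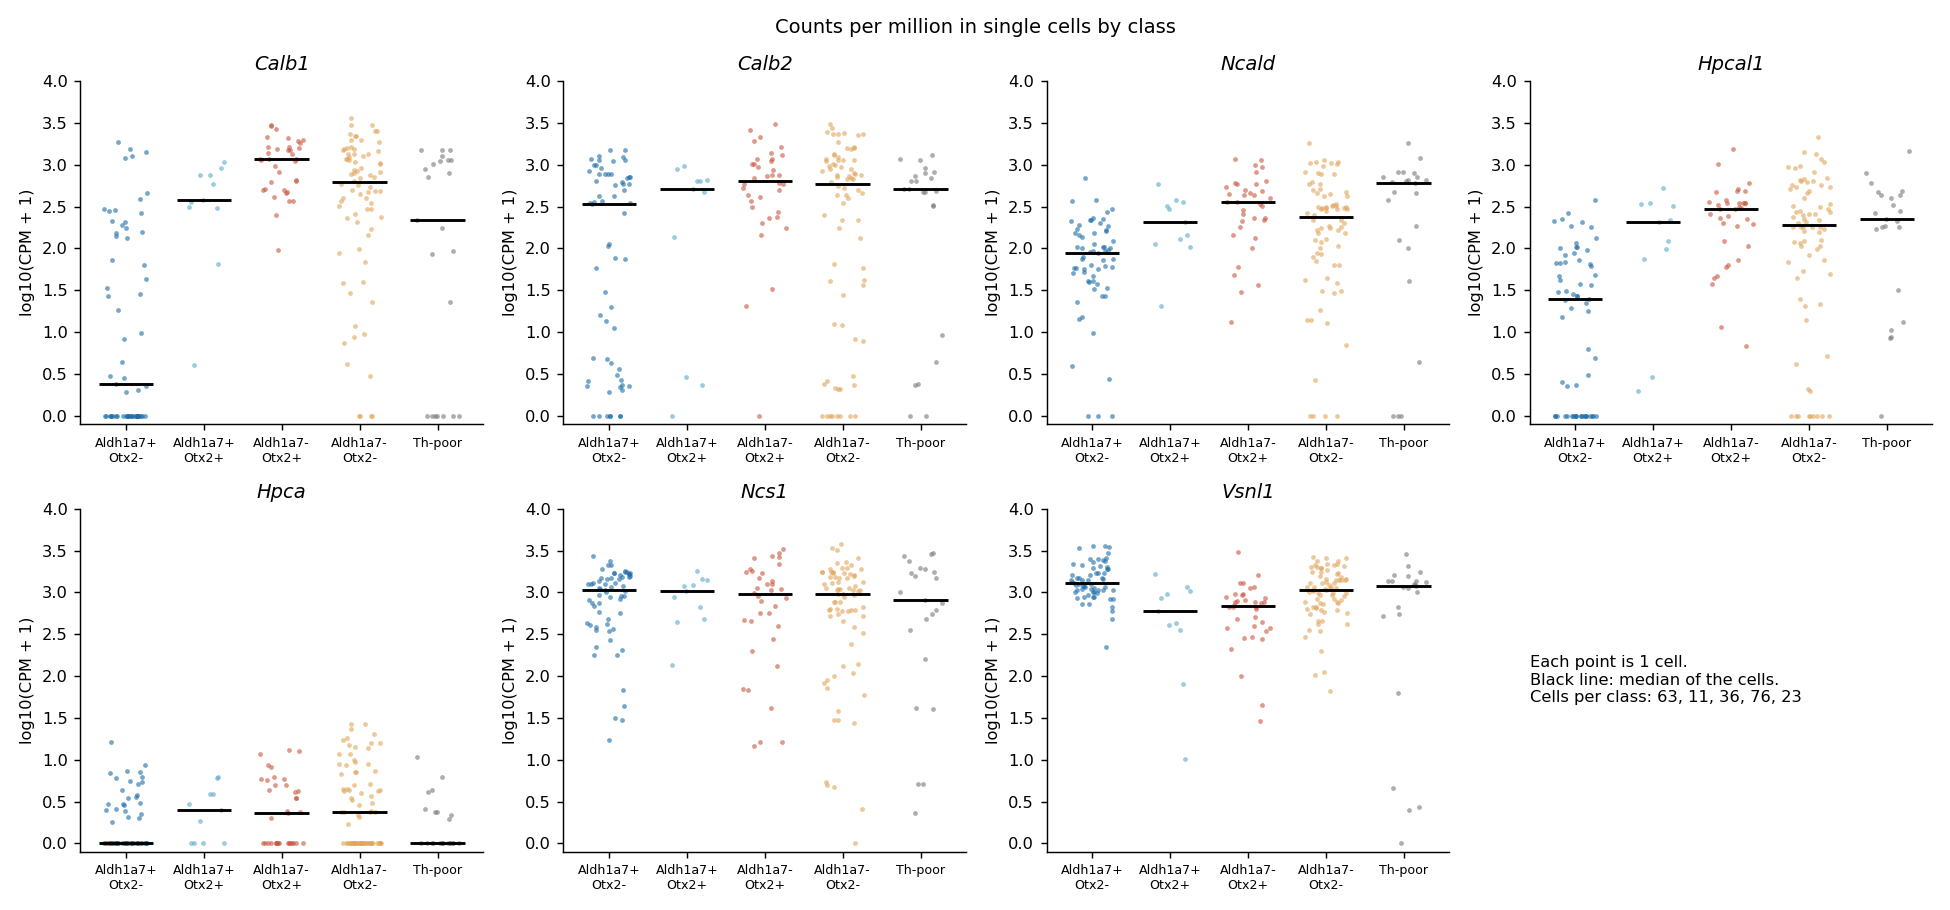
Level of each detected member in single cells, as CPM on a log scale after adding 1, by class of cell (Th-rich cells split by Aldh1a7 and Otx2 status, and Th-poor cells), with each point a cell and the bar the median. Calb1 is near 0 in many Aldh1a7+/Otx2- cells (median 1.40 CPM) and present in all 36 Aldh1a7-/Otx2+ cells (median 1161 CPM), while Vsnl1 is high in every class of Th-rich cell.

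Calb1 and Calb2 were mostly found in the same cells. Across all 209 cells 138 (66.0%) had both from 10 counts, 18 had Calb1 alone, 22 had Calb2 alone and 31 had neither. The 4 classes of Th-rich cell differed in this mix. Of 63 Aldh1a7+/Otx2- cells, 26 had both, 1 had Calb1 alone, 16 had Calb2 alone and 20 had neither. Of 36 Aldh1a7-/Otx2+ cells, 35 had both and 1 had Calb1 alone. Of 76 cells negative for both class genes, 54 had both, 13 Calb1 alone, 4 Calb2 alone and 5 neither, and of 11 cells positive for both class genes, 7 had both, 3 Calb1 alone and 1 Calb2 alone. Cells without Calb1 thus came mainly from the Aldh1a7+/Otx2- class, in which 42.9% of cells had it (30.5 to 56.0%). Mouse 3 alone gave 28 of these 63 cells, and 28.6% of its cells in the class had Calb1. All Aldh1a7+ cells of mice 7 and 8 (5 and 6 cells) had it. Cells of 1 mouse share an animal and a C1 run and are not replicates, so these counts are descriptions and the tests follow over mice.

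The first comparison asked whether calcium-protein levels differ between Aldh1a7+ and Aldh1a7- DA neurons, in the 7 mice (2 to 8) with at least 3 cells of each class. Summed levels of Calb1, Hpcal1 and Ncald were lower in Aldh1a7+ cells in 7 of 7 mice, but no member passed edgeR's quasi-likelihood test at a Benjamini-Hochberg adjusted p of 0.05. Of 12526 genes tested, 14 (0.112%) passed, against 0 of the 7 members tested, and Pvalb had no reads to test. At an unadjusted p under 0.05 there were 3 members (7.77% of all genes tested), and DESeq2 called 2 (1.2% of all genes). Lower values in all 7 mice were found for 445 genes (3.55%).

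Hpcal1, a sensor of the hippocalcin family, had the smallest p of the members. In Aldh1a7+ cells its level was 55.3 CPM in the lowest mouse, 64.8 at the median and 164 in the highest. In Aldh1a7- cells these were 172, 267 and 436 CPM. The lowest Aldh1a7- mouse was thus above the highest Aldh1a7+ mouse, and such a gap in this direction was present in 40 genes (0.319%). The log2 fold change was -1.57 (SE 0.31) with an adjusted p of 0.0579 by edgeR. With mouse as a block, which pairs both classes of the same animal, it was -1.63 (SE 0.23) with an edgeR adjusted p of 0.0276, and 19 genes (0.152%) passed in that fit. On 1 machine at a time, the log2 fold change was -1.49 on FRODO and -1.61 on SMEAGOL, with edgeR adjusted p of 1.00 and 0.286. Leaving out 1 mouse at a time, the edgeR adjusted p was under 0.05 only without mouse 8 (0.0492) and was 0.0503 to 0.287 without each of the other 6 mice. Hpcal1 passed edgeR as well with all cells regardless of Th (52 genes passing, 0.407%), with cells from 100000 counts (33 genes, 0.254%) and with no filter on low counts (19 genes, 0.0758%). With cells called Aldh1a7+ from 1 count, the log2 fold changes were closer to 0, at -1.18 for Hpcal1, -0.83 for Calb1 and -0.81 for Ncald. The exact sign-flip test over mice on log2(CPM + 1), chosen after seeing the data, gave a two-sided p of 0.0156 for Hpcal1, the smallest that 7 pairs can give. A shared direction in all 7 mice fixes this p, so it adds nothing to that direction.

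Calb1, the buffer, varied widely between mice in Aldh1a7+ cells. Its level there was 47.7 CPM in the lowest mouse (mouse 4), 179 at the median and 671 in the highest (mouse 7), against 507.9, 1012 and 1301 CPM in Aldh1a7- cells. The value of mouse 4 rested on 124 counts in 4 cells. Only mice 7 and 8 had Aldh1a7+ levels (671 and 650.4 CPM) above the lowest Aldh1a7- mouse. The Aldh1a7+ cells of these mice (5 and 6 cells) also differed in Otx2 and Aldh1a7. Otx2 was detected in 60% and 66.7% of them against 0 to 27.3% in the other 5 mice (4 to 28 cells). Aldh1a7 was at 97.8 and 116 CPM against 335 to 713.7 CPM. The part of these differences in the levels of Calb1 was not tested. The log2 fold change was -1.74 (SE 0.48) with an edgeR adjusted p of 0.266. With the mouse block it was -2.25 (SE 0.43, edgeR adjusted p = 0.0963), and within machines it was -1.38 on FRODO and -2.04 on SMEAGOL. With at least 5 cells per class, which left 5 mice, it was -1.30 (edgeR adjusted p = 0.762). DESeq2 called Calb1 (adjusted p = 0.0182) and Hpcal1 (adjusted p = 0.000297) among 150 genes (1.2%).

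Ncald, a sensor that binds membranes and clathrin in the presence of calcium, had 33.1 CPM in the lowest, 134 in the median and 241 in the highest mouse in Aldh1a7+ cells. In Aldh1a7- cells the values were 191, 298 and 474 CPM. The 2 ranges overlapped only through mice 7 and 8, in which Aldh1a7+ levels of 241 and 200.3 CPM lay above the 191 CPM of mouse 4. These are the mice whose Aldh1a7+ cells (5 and 6 cells) were mostly Otx2+, and the part of Otx2 status in the overlap was not tested. The log2 fold change was -1.19 (SE 0.35, edgeR adjusted p = 0.309), with -0.79 on FRODO and -1.53 on SMEAGOL. Calb1 and Ncald, also lower in all 7 mice, had the same smallest sign-flip p of 0.0156, which that direction fixes. Each was exact, two-sided and unadjusted, and 1 of 21 such level tests over 7 members and 3 splits.

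**Figure D2:**
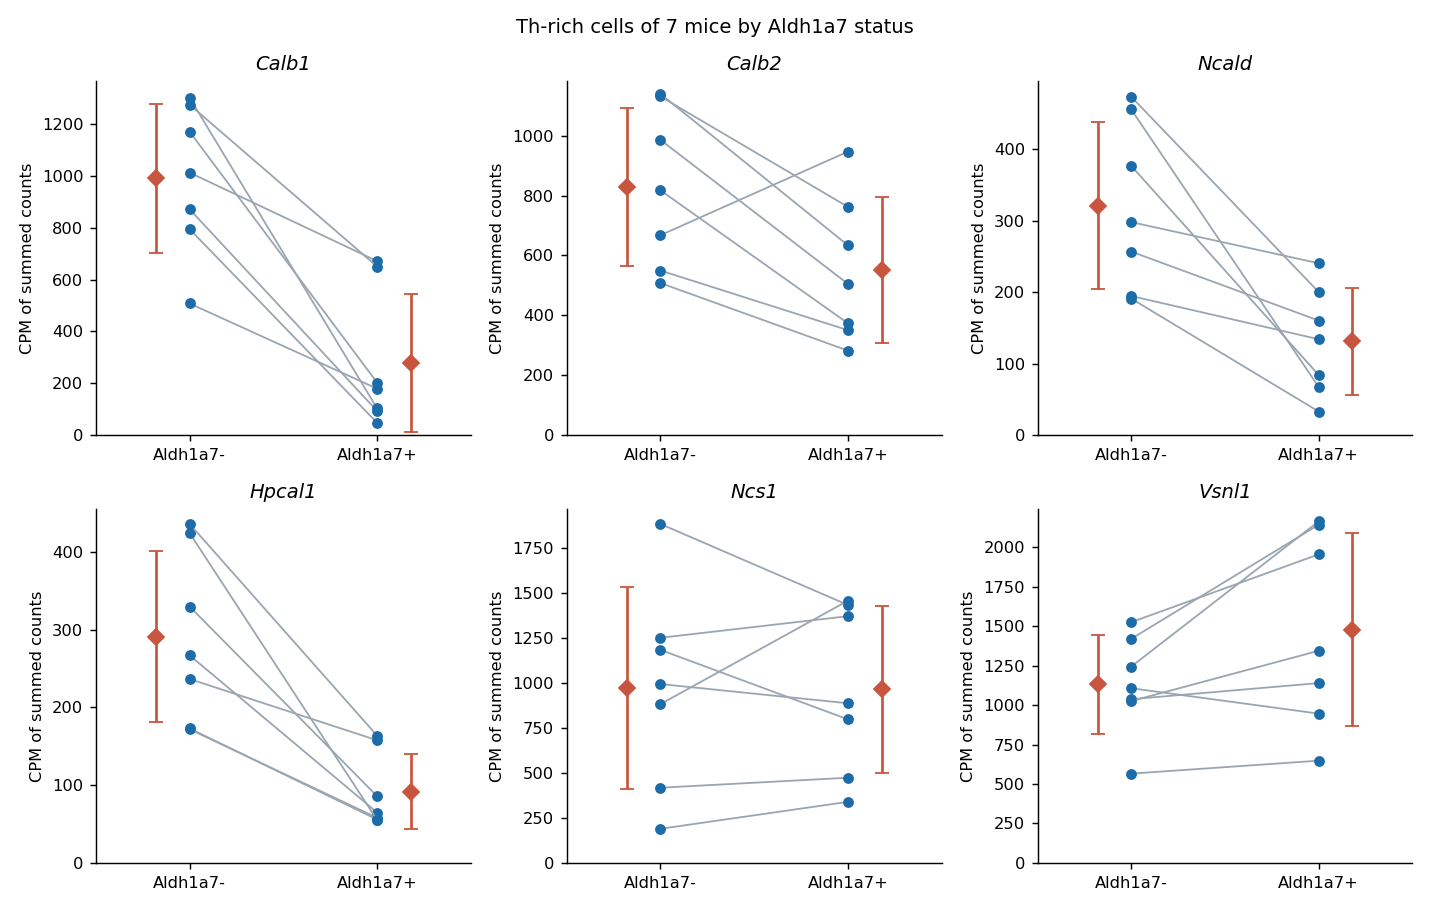
CPM of members in the summed Aldh1a7+ and Aldh1a7- Th-rich cells of each of 7 mice, with lines joining both classes of 1 mouse. The Aldh1a7+ end of the line is the lower for Calb1, Hpcal1 and Ncald in 7 of 7 mice, and the 2 classes do not overlap for Hpcal1.

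The remaining members gave smaller values. Calb2 was 282 CPM in the lowest, 505.2 in the median and 947 in the highest mouse in Aldh1a7+ cells, against 507.997, 817 and 1139 CPM. It was lower in 6 of 7 mice (log2 fold change -0.47, SE 0.29, edgeR adjusted p = 0.751). Vsnl1 had the opposite sign, with 648, 1344 and 2164 CPM in Aldh1a7+ cells against 566, 1107 and 1525 CPM. It was higher in 6 of 7 mice (0.49, SE 0.27, edgeR adjusted p = 0.729). Ncs1 averaged 966 ± 465 CPM in Aldh1a7+ and 972 ± 560 CPM in Aldh1a7- cells (SD, n = 7 mice), a log2 fold change of 0.11 (SE 0.43). Hpca averaged 2.01 ± 1.06 against 3.46 ± 1.99 CPM. The median log2 fold change of the 7 members was -0.67, against -0.01 over all genes tested. That median is the value of Hpca alone (SE 0.57), which rested on few reads.

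The share of cells in which a gene was detected was compared over the same mice. Averaged over the 7 mice, Calb1 was detected in 64.1% of Aldh1a7+ and 90.6% of Aldh1a7- cells, 26.4 percentage points lower (two-sided exact permutation p = 0.0625, flipping the sign of each mouse). Hpcal1 was detected in 67.3% against 85.5% (exact permutation p = 0.0625), and Ncald in 85.8% against 90.8% (exact permutation p = 0.438). No member's share passed 0.05 at this detection limit. A mouse with equal shares does not count in this test, so Calb1, equal in 2 mice, could not go below 0.0625, and Hpcal1 and Ncald, equal in 1 mouse, not below 0.0313. From 50 counts the difference for Hpcal1 was -30.7 points, with an exact permutation p of 0.0469. By class, the median cell had 24.0 CPM of Hpcal1 in the Aldh1a7+/Otx2- class and between 190 and 294 CPM in the other Th-rich classes. For Ncald the medians were 85.9 CPM in that class and between 206 and 358 CPM in the others.

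Markers of some other cell types differed with Aldh1a7 status. The 3 GABA neuron markers, all with reads in both classes, summed to 0 to 5392 CPM in Aldh1a7- cells and 0 to 1789 CPM in Aldh1a7+ cells, and passed 100 CPM in 28 of 112 and 2 of 74 cells. Of 5 oligodendrocyte markers 4 had reads in each class, with Mog at 0, and their sum averaged 259 CPM (0 to 22966 per cell) against 7.41 CPM (0 to 233), with medians of 4.88 and 0.962 CPM. Astrocyte markers averaged 2.21 against 0.480 CPM, with medians of 0 in both classes. Microglia (0.470 against 0.655 CPM) and endothelial markers (0.286 against 0.577 CPM) had averages under 1 CPM in both classes and the opposite sign. The glutamate transporter gene Slc17a6 averaged 200.4 against 61.1 CPM, and its part in the differences was not tested. Without the cells with GABA markers the log2 fold change was -1.57 for Hpcal1, -1.97 for Calb1 and -1.21 for Ncald, and without the 2 Th-rich cells with glial markers it was -1.57, -1.75 and -1.16. Among Otx2- cells alone, in 4 mice, it was -2.63 for Hpcal1 and -2.58 for Calb1, with edgeR adjusted p of 0.124 and 0.160. These subsets were chosen after seeing the data.

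**Figure D3:**
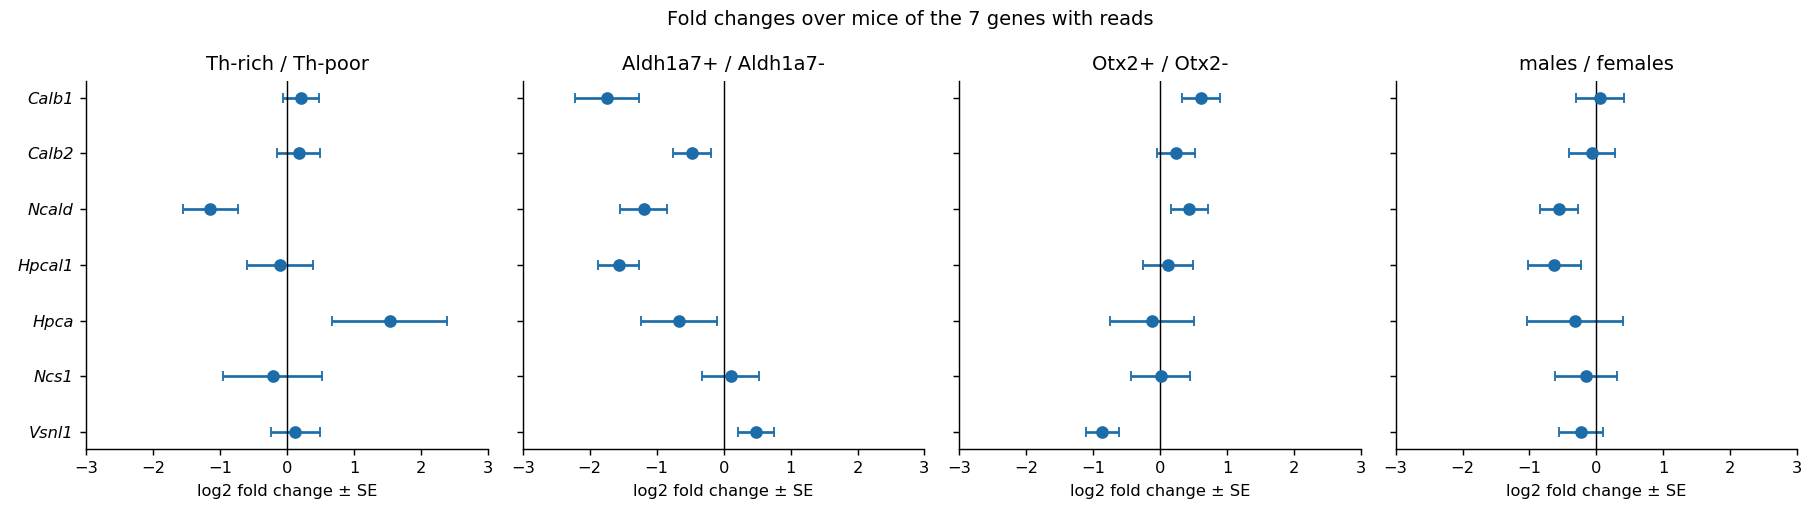
Log2 fold change of each tested member (points) with its standard error (bars) in the 4 comparisons over mice, by edgeR. Hpcal1, Calb1 and Ncald lie below -1 for Aldh1a7 status, where no adjusted p is under 0.05, and Ncald lies at -1.15 for Th status.

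In the wider list of 38 calcium-binding genes, 22 were tested for Aldh1a7 status and 0 passed by edgeR. At an unadjusted p under 0.05, 3 were higher and 7 lower, where 3.62% of all genes tested were higher and 4.15% lower. Beside the members, those chosen here after their values were seen were the Kv4 channel partners Kcnip2 (log2 fold change -3.84) and Kcnip1 (-2.56) and the calcium-binding gene Necab1 (-2.94) among the lower, and the channel partner Kcnip3 (1.59) among the higher. None of the 4 passed the adjusted test.

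The second comparison set Otx2+ against Otx2- Th-rich cells in 6 mice (1, 2, 3, 5, 7 and 8). Vsnl1 was lower and Calb1 higher in Otx2+ cells in 6 of 6 mice, but no member passed the adjusted test. Of 12355 genes, 11 (0.089%) passed by edgeR, against 0 of 7 members tested, and with mouse as a block 0 genes passed. At an unadjusted p under 0.05 there were 2 members (5.56% of all genes tested), and DESeq2 called 0 (0.866% of all genes). Lower values in all 6 mice were found for 3.99% of genes and higher values for 2% of genes.

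Vsnl1, a sensor that binds membranes upon calcium, was 430.1 CPM in the lowest, 679 in the median and 926 in the highest mouse in Otx2+ cells, against 681, 1195 and 2002 CPM in Otx2- cells. Mouse by mouse, Otx2+ against Otx2- cells had 430.1 and 1059 CPM in mouse 1, 445 and 681 in mouse 2, 663 and 1148 in mouse 3, 833 and 2002 in mouse 5, 694 and 1370.3 in mouse 7, and 926 and 1241 in mouse 8. The ranges overlapped because mouse 2 was low in both classes. The log2 fold change was -0.86 (SE 0.25, edgeR adjusted p = 0.449), with -0.82 on FRODO and -0.95 on SMEAGOL. Among Aldh1a7- cells alone it was -0.71. The exact sign-flip test, chosen after seeing the data, gave a two-sided p of 0.0313, the smallest that 6 pairs can give. A shared direction in all 6 mice fixes this p, so it adds nothing to that direction.

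Calb1 was 702.4 CPM in the lowest, 1045 in the median and 1185 in the highest mouse in Otx2+ cells, against 236, 698 and 1046 in Otx2- cells. Otx2+ levels varied less between mice (SD 177 against 315 CPM). The log2 fold change was 0.61 (SE 0.28, edgeR adjusted p = 0.897). It was 0.53 among Aldh1a7- cells alone and 0.20 without the cells with GABA markers. Other settings also changed the mice compared. It was 0.93 on FRODO and 0.30 on SMEAGOL (3 mice each) and 0.37 after thinning (5 mice). With cells called Otx2+ from 50 counts it was 0.20 (4 mice), and with at least 1 cell per class 0.94 (8 mice). Detection of Calb1 averaged 98.5% of Otx2+ and 76.7% of Otx2- cells (exact permutation p = 0.125), and of Calb2 90.2% and 68.9% (exact permutation p = 0.0625). No share passed 0.05. Calb1 was equal in 2 mice and could not go below 0.125, while Calb2 could reach 0.0313. After thinning each cell to 500000 counts the difference for Calb2 was 23.8 points, with an exact permutation p of 0.0313.

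**Figure D4:**
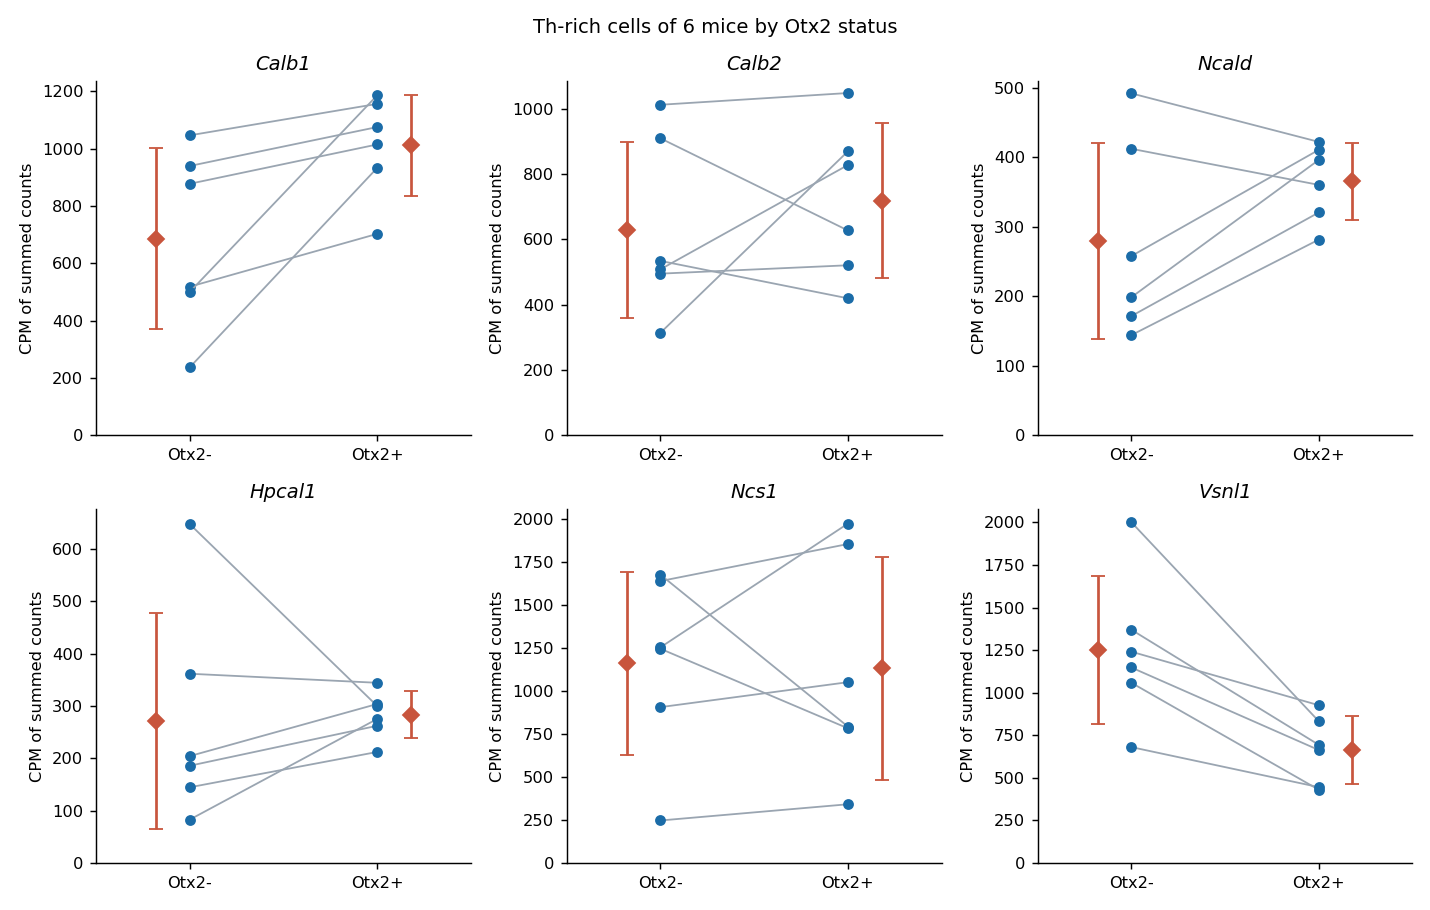
CPM of members in the summed Otx2+ and Otx2- Th-rich cells of each of 6 mice, with lines joining both classes of 1 mouse. Vsnl1 is lower and Calb1 higher in the Otx2+ cells of all 6 mice, while the other members go up in some mice and down in others.

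Ncald averaged 365 ± 55.3 CPM in Otx2+ and 279 ± 141 CPM in Otx2- cells (log2 fold change 0.44, SE 0.27). Hpcal1 was 212 CPM in the lowest, 287 in the median and 344 in the highest mouse in Otx2+ cells, against 82.6, 195 and 648 CPM in Otx2- cells, where the highest was mouse 1. Its log2 fold change was 0.12 (SE 0.38) with all 6 mice and 0.56 without mouse 1. Calb2, Ncs1 and Hpca had log2 fold changes of 0.24 (SE 0.29), 0.01 (SE 0.45) and -0.12 (SE 0.62). Hpca reached 10 counts in no Otx2+ cell, in 1 of 63 Aldh1a7+/Otx2- cells and in 12 of 76 cells negative for both. Sox6, a transcription factor of substantia nigra DA neurons, averaged 3.03 CPM in Otx2+ and 43.0 CPM in Otx2- cells. Slc17a6 averaged 274 against 101 CPM, and its part in these values was not tested. Summed GABA neuron markers passed 100 CPM in 3 of 47 Otx2+ and 27 of 139 Otx2- cells, and without such cells the log2 fold change of Vsnl1 was -1.13. In the wider list 22 genes were tested and 0 passed, with 2 higher and 2 lower at an unadjusted p under 0.05 (2.67% and 2.89% of all genes tested).

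The third comparison set Th-rich against Th-poor cells in 5 mice (1, 2, 4, 5 and 6). Levels of most members overlapped, and Ncald had the largest difference among the abundant members. Of 11133 genes tested by edgeR, 54 (0.485%) passed, against 0 of 7 members, with 1 at an unadjusted p under 0.05 (9.24% of all genes) and 0 by DESeq2 (3.38% of all genes). Ncald was 473, 313, 115, 206 and 273 CPM in Th-rich cells of mice 1, 2, 4, 5 and 6, and 366, 444, 659, 339 and 1093 CPM in the Th-poor cells of the same mice. It was lower in Th-rich cells in 4 of the 5 mice, all but mouse 1 (log2 fold change -1.15, SE 0.41, edgeR adjusted p = 0.373). Its exact sign-flip p was 0.125, where 5 pairs allow 0.0625. Hpca was higher in Th-rich cells in 5 of 5 mice (3.99 ± 1.17 against 1.27 ± 1.17 CPM), as were 9.95% of all genes tested, with a log2 fold change of 1.53 (SE 0.86, edgeR adjusted p = 0.640) that rested on 0 to 7 counts in each Th-poor sum. Calb1, Calb2, Hpcal1, Ncs1 and Vsnl1 had log2 fold changes of 0.21, 0.17, -0.11, -0.21 and 0.12. No share of cells could pass 0.05 with 5 pairs, and in the wider list of 22 tested genes 0 passed by edgeR, with 3 higher and 1 lower at an unadjusted p under 0.05 (4.46% and 4.78% of all genes tested).

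The Th-poor class was mixed, and the members divided it. In 5 of the 23 Th-poor cells summed astrocyte markers passed 100 CPM or oligodendrocyte markers passed 1000 CPM. Those 5 cells had 0 CPM of Calb1, at most 3.38 CPM of Calb2 and a median of 1.69 CPM of Vsnl1. Hpcal1 was still detected in 4 of them (median 184 CPM) and Ncs1 in 3, whereas Ncald was detected in 1. In the other 18 Th-poor cells Calb1 was detected in 16, Calb2 in 17, Ncald and Vsnl1 in 18, Ncs1 in 17 and Hpcal1 in 15, with medians of 838 CPM for Calb1, 647 for Ncald and 1294 for Vsnl1. Slc17a6 averaged 590.2 CPM in Th-poor and 145 CPM in Th-rich cells, and its part in these values was not tested. Without cells with glial markers, which left 4 mice, the log2 fold change of Ncald was -1.43 (edgeR adjusted p = 0.291).

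Male and female mice were compared by summing all cells of each mouse, 5 against 3. No member passed by edgeR, while 5 of 15529 genes (0.0322%) did. No member had an unadjusted p under 0.05 (8.12% of all genes) or was called by DESeq2 (1.22% of all genes). Hpcal1 (log2 fold change of males against females -0.63, SE 0.39) and Ncald (-0.56, SE 0.28) had the largest values with all mice. Without female 1, Hpcal1 was -0.15, the closest to 0 of the 7 members, so its value rested on that mouse, while Ncald was -0.53. The sums pooled different mixes of cells, with 66 Aldh1a7+ and 9 Th-poor of 162 cells in males and 8 Aldh1a7+ and 14 Th-poor of 47 cells in females, and the part of this mix in the values was not tested. The smallest adjusted p of a member was 0.650 by edgeR. The other values lay between -0.33 for Hpca and 0.05 for Calb1. All 3 females were run on SMEAGOL. Females were aged P25, P33 and P36 and males P24 to P28, so sex and age cannot be fully told apart.

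Mouse 5 had a far lower level of Ncs1 than the other 7 mice. Its 38 cells held 249 CPM of Ncs1 in sum, against 1043 to 1618 CPM in the other 7 mice. Their median cell had 69.1 CPM and the highest 899.9 CPM, whereas the medians of the other mice ran from 616 to 1521 CPM. The low level was present in both Aldh1a7+ (340 CPM) and Aldh1a7- cells (190 CPM) of that mouse. Mouse 5 stood apart on the low side in this way for 13 of 12106 genes (0.107%), where the other mice did for 2 to 15 genes. On the high side mouse 1 stood apart for 692 genes (5.72%), the most of any mouse, and mouse 5 for 283 (2.34%). Without mouse 5 the log2 fold change of Ncs1 by sex was 0.10 in place of -0.16.

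**Figure D5:**
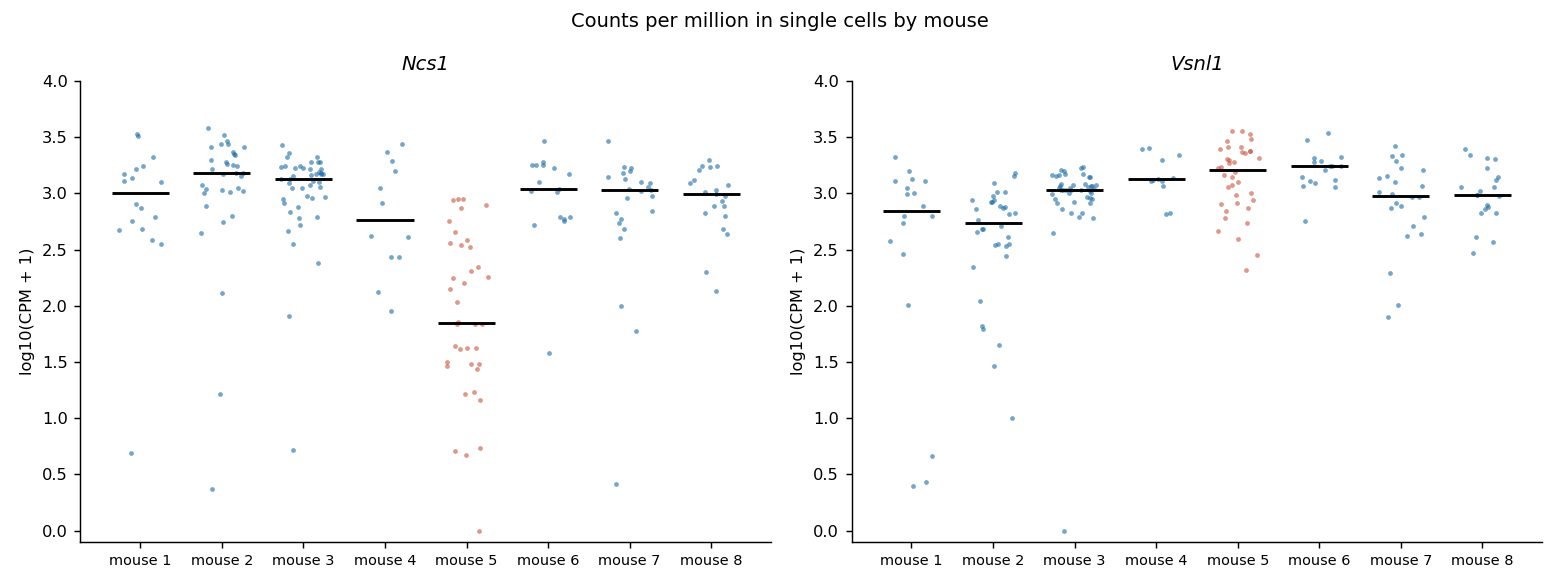
Ncs1 in each cell by mouse as CPM on a log scale after adding 1, with the median of each mouse as a bar. The median of mouse 5 (69.1 CPM) lies below those of the other 7 mice (616 to 1521 CPM).

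Across the 209 cells, members differed in which genes they varied with. These Spearman correlations describe cells that share mice, runs and depth and pool classes with different levels, and they carry no test. Ncald and Hpcal1 had the highest rho of any pair of members, 0.58, positive within 8 of 8 mice (0.30 to 0.73). Calb1 had a rho of 0.48 with Hpcal1, 0.46 with Calb2 and 0.42 with Ncald, each positive within 7 of 8 mice. Among Aldh1a7+ cells these were 0.56, 0.39 and 0.45, and among Aldh1a7- cells 0.26, 0.42 and 0.18. Hpcal1 and Vsnl1 had a rho of -0.28, positive in 1 of 8 mice, but only -0.18 and -0.11 within the Aldh1a7+ and Aldh1a7- classes. Ncald and Hpcal1 had 0.32 and 0.64 in these classes. The longest open reading frames of Ncald and Hpcal1 are 81.0% identical, but the longest stretch in common between their transcripts is 18 bases. Hpca has 46 bases in a row in common with Ncald and 38 with Hpcal1, so its few reads are the most uncertain.

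Over 12105 genes compared, those most like Calb1 were Ahi1 (rho 0.59), Fxyd6 (0.55) and Magi1 (0.54), and those most like Calb2 were Fxyd7 (0.50), Chl1 (0.49) and Fxyd6 (0.49). Ncald was most like Hpcal1 (0.58), Hap1 (0.54) and Cadm1 (0.51), and Hpcal1 most like Ncald, Cadm1 (0.55) and Ahi1 (0.53). Hpca, with few reads, reached only 0.37 with Vstm2a and 0.34 with Ebf3 and Calb2. Vsnl1 was most like A830083F22 (0.53), Tpbg (0.49) and Rab3c (0.47). Within single mice, 7 of the 21 member and gene pairs had a rho below 0 in at least 1 mouse, namely Calb1 with Ahi1, Calb2 with Chl1 and Fxyd6 (down to -0.38), Hpcal1 with Ahi1, Hpca with Vstm2a and Ebf3, and Vsnl1 with A830083F22. Ncs1 was most like Golga7b (0.69), Tug1 (0.58) and Scn2b (0.58), and these 3 genes were also lowest in mouse 5. Without mouse 5 the rho values over 171 cells were 0.57, 0.45 and 0.43.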

How the data were processed

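Single tdTomato+ cells were sorted and captured on the C1 system, and libraries were made with SMARTer and Nextera XT chemistry. The authors trimmed reads with Trimmomatic 0.3.2, aligned them with TopHat2 2.1.1 to GRCm38 and deposited raw counts per RefSeq gene and cell from featureCounts 1.5.0-p3, leaving out chimeric fragments and reads on more than 1 gene. Spike-in and transgene rows (0.00325% of reads) were left out, and 0 columns lacked a sample.

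Counts were summed per mouse and class (at least 3 cells), filtered with filterByExpr, scaled by TMM and fitted without a block by the quasi-likelihood method of edgeR 4.0.16 (R 4.3.3). SE is the absolute log2 fold change over the root of F. DESeq2 1.42.0 and a mouse block were alternatives. Both classes come from the same animal, so classes are paired by mouse, and same-mouse deviations correlated at 0.0195 to 0.218. The replicate is the mouse. Shares of cells were compared by exact sign-flip permutation. The procedure was tested on simulated data, and no doublet caller was run. The genes named were the members, the class genes and their checks, the 3 genes most like each member, and calcium-list genes that passed, of which there were none. Kcnip1, Kcnip2, Kcnip3 and Necab1, outside this rule, were named for their size after their values were seen, and Slc17a6 and Mog are from fixed marker lists. The members and lists were chosen with earlier results of these data known. RPKM used exon length per gene.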

Additional observations from a re-analysis of the deposited data

Results flagged for a closer look

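Ncs1 over all 8 mice was 249 CPM in mouse 5 and 1043 to 1618 CPM in the others, a gap that passed Dixon's limit for 8 samples. Hpca in Otx2+ cells was 6.92 CPM in mouse 1 (16 counts in 3 cells) and 1.90 to 2.23 CPM in the other 5 mice, which also passed. Of 56 groups examined these 2 passed, and chance alone passes about 1 in 20 groups. Vsnl1, as Th-rich minus Th-poor on log2(CPM + 1), was above 0 in females 1, 4 and 6 (0.56, 0.64 and 0.02) and below 0 in males 2 and 5 (-0.20 and -0.08). The mean of the males was lower by 0.55 (males minus females -0.55), and this difference was not tested.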

How the results depend on the processing

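By adjusted p of edgeR or DESeq2, no member passed in any setting run for the Otx2, Th and sex comparisons. For Aldh1a7 status Hpcal1 passed with no filter on low counts (adjusted p = 0.0487), from cells of 100000 counts (0.0278), with all cells (0.0303), with the mouse block and without mouse 8 (1 member each), and DESeq2 called 2 members. Its edgeR and DESeq2 adjusted p ran from 0.000297 to 1.00 over the alternatives. The cause of these shifts was not tested. The block changed no other member's call.

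Genes passing for Th status (main 54) were 30 with no filter, 376 by DESeq2, 98 from 100000 counts, 13 on SMEAGOL, 11 with the replicate block (mouse), 13 without cells with GABA markers, 0 with Th-rich from 100 CPM, and 10 to 105 when 1 mouse was left out (105 without mouse 1, 17, 15, 13 and 10 without mice 2, 4, 5 and 6). For Aldh1a7 status (14) they were 150 by DESeq2, 33 from 100000 counts, 4 on SMEAGOL, 1 on FRODO, 5 without GABA-marker cells, 27 after thinning, 52 with all cells, 5 in Otx2- cells alone and 8 to 18 leaving out a mouse (9, 8 and 8 without mice 2, 5 and 6). For Otx2 status (11) they were 3 with no filter, 107 by DESeq2, 25 from 100000 counts, 1 on SMEAGOL, 0 on FRODO, 0 with the block (883 at an unadjusted p under 0.05), 1 with at least 5 cells per class, 5 without glial-marker cells, 5 without GABA-marker cells, 2 after thinning, 5 and 1 with positive from 1 and 50 counts, 6 with all cells, 2 in Aldh1a7- cells alone and 2 to 8 leaving out a mouse (2 and 3 without mice 5 and 8). By sex (5) they were 190 by DESeq2 and 0 on SMEAGOL.

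The signs that turned belonged to values that did not pass. For Th status the log2 fold change of Calb1 was -0.031 without glial-marker cells and -0.11 with Th-rich from 100 CPM, of Hpcal1 0.15 from 100000 counts and 0.053 without GABA-marker cells, and of Ncs1 0.32 with the block and 0.36 in the sign-flip test. Leaving out a mouse gave -0.30 to 0.23 for Hpcal1, -0.68 to 0.30 for Ncs1 and -0.058 to 0.22 for Vsnl1. For Aldh1a7 status Ncs1 was -0.082 with at least 5 cells, -0.0069 with positive from 50 counts, -0.080 with all cells and -0.080 to 0.23 leaving out a mouse.

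For Otx2 status on SMEAGOL alone Calb2, Hpcal1 and Ncs1 were -0.11, -0.21 and -0.16, without GABA-marker cells -0.24, -0.21 and -0.15, and after thinning -0.16, -0.19 and -0.11, with Hpca at 0.17. Calb2 was -0.011 with at least 5 cells and -0.18 with positive from 50 counts, Hpca 0.075 with all cells, and Ncs1 -0.051 with no filter, -0.0017 with at least 1 cell, -0.057 with positive from 1 count and -0.039 in the sign-flip test. Leaving out a mouse gave -0.064 to 0.56 for Hpcal1, -0.45 to 0.18 for Hpca and -0.20 to 0.21 for Ncs1. By sex, Calb2 and Ncs1 were 0.41 and 0.15 on SMEAGOL, and leaving out a mouse gave -0.14 to 0.22 for Calb1, -0.32 to 0.17 for Calb2 and -0.35 to 0.10 for Ncs1.

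From 1 count the share of cells was 2.48 points higher for Ncald and 4.96 for Hpca in Aldh1a7+ cells and 12.7 for Hpca in Otx2+ cells. From 50 counts it was 0.844 for Vsnl1 in Aldh1a7+ cells and -0.465 for Ncs1 in Otx2+ cells. From 10 counts the share for Ncs1 in Otx2+ cells was 1.46 points higher, and -0.472 to 3.57 leaving out a mouse. 1 member's share passed from 50 counts for Aldh1a7 status and 1 after thinning for Otx2 status. Of the other values of single members followed in this way, 627 kept sign and side. Shares for Th status were followed only as the number passing, which 5 pairs hold at 0, and several of them turned sign.

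FRODO alone could not be fitted for Th status and sex, nor at least 5 cells per class for Th status. Each class comparison rested on 5 to 7 mice, and levels of Hpca on few reads. The median of all genes for Th status was -0.11, against 0.33 with the block.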
